A study of Danio rerio with 12 samples.

Results

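The 8 brain libraries of zebrafish that carry a miR-29 sponge fall into separate sets by their level of gnat1, the α subunit of rod transducin. The sets were chosen by that measured level alone, in CPM, which is a gene's count scaled to the library total: 5 libraries held more than 10 CPM and 3 held less. The 8 are part of 12 libraries in all, and the other 4 are wild type. All 12 came from brains of male fish aged 6 months. The actb1::miR-29sponge line and the kif5a::miR-29sponge line gave 4 libraries each. A sponge RNA is built to occupy a microRNA with decoy sites, so that less of it is free for the natural targets. The constructs are named for actb1, a broadly used actin gene, and kif5a, a neuronal kinesin gene; the sources used here do not give how many founders a line goes back to, nor whether each library is 1 brain. The high set is made up of actb1 sponge 1, 2 and 3 and kif5a sponge 2 and 3, and the low set of actb1 sponge 4 and kif5a sponge 1 and 4, so that each line is on both sides. Library numbers follow accession order and pair nothing.

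Transducin is the G protein of the photoreceptor cascade. Light changes an opsin, the opsin activates transducin, transducin activates a cyclic GMP phosphodiesterase, and the fall in cyclic GMP closes a cation channel. Rods and cones use separate genes for most of these steps. In fish the cascade is not found in the retina alone. The pineal organ, which lies on the dorsal surface of the brain, holds light-sensitive cells of its own and makes melatonin from serotonin in steps that use an N-acetyltransferase and then the methyltransferase encoded by ASMT.

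Depth did not separate the sets. Total gene counts ran from 25025902 to 33573243 in the 5 high libraries, from 26613971 to 31634559 in the 3 low libraries and from 20884576 to 29640414 in wild type, so that 3 counts, the limit that a count of 0 allows, stand for 0.0894 to 0.144 CPM in a library. This floor covers counting error only. One library stood apart: the 13 protein genes of the mitochondrial genome held 2.24% of the counts in actb1 sponge 3, against 9.37% to 14.0% in the other 11. Brain genes were abundant in every library, the list of oligodendrocyte and myelin genes summing to 13909 to 20471 CPM in the high set, 15994 to 16563 in the low set and 15708 to 25459 in wild type.

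The value that sorted the libraries was gnat1 itself (GNAT1 in the name table). It stood at 56.1, 38.3, 85.6, 55.2 and 60.9 CPM in actb1 sponge 1, 2 and 3 and kif5a sponge 2 and 3, at 0.676, 0.8999 and 2.56 CPM in actb1 sponge 4 and kif5a sponge 1 and 4, and at 2.14, 0.304, 0.2502 and 0.479 CPM in wild type 1 to 4. The values nearest the threshold were 38.3 CPM on the inside and 2.56 CPM on the outside, with no library between them. Values below are given in this same order of libraries.

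Because a measured gene set the groups, differences between them are a description, and no p-value is given for them. A gene is called when the adjusted p of a fit over all genes (edgeR's quasi-likelihood test with line as a covariate) lies under 0.05, and among 19547 genes with more than 0.5 CPM in at least 3 of the 8 libraries 81 were called higher in the high set (0.414%) and 0 lower (0%). At an unadjusted p under 0.05 the same fit gave 414 higher and 164 lower. DESeq2 called 139 higher and 10 lower, and limma-voom 82 and 0. Complete separation of the 5 from the 3 libraries held for 352 genes above (1.8%) and 123 below (0.629%). The median log2 difference over all genes tested was 0.02. A gene found only in the high set passes the 0.5 CPM filter through that set, so the counts of called list members below are likewise a description from which nothing is read.

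**Figure D1:**
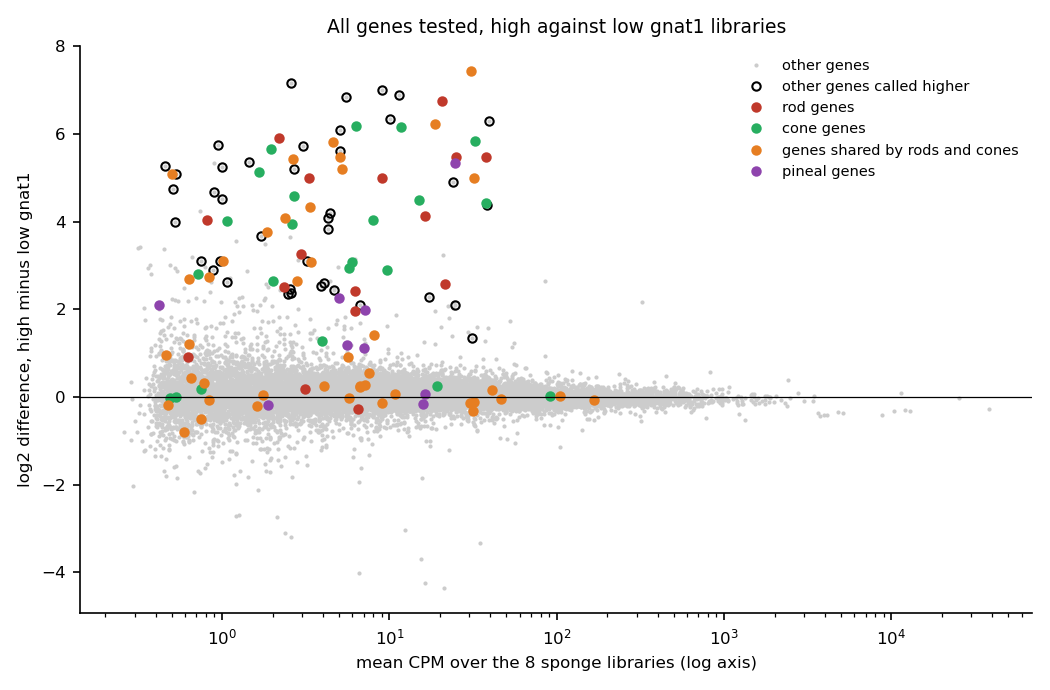
Each point is 1 of the 19547 genes, with its mean CPM over the 8 sponge libraries on a log axis and the fitted log2 difference of high minus low gnat1 libraries on the vertical axis. Coloured points are members of the 4 photoreceptor and pineal lists and open circles are other called genes; the 81 called genes all lie above 0, from 1.34 to 7.42.

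Of the 81 called genes, 41 belonged to the 4 lists of rod genes, cone genes, genes shared by rods and cones, and pineal genes. The gene that set the groups, gnat1, is among the 41 and so in every summary of the 81 below. These lists held 16, 22, 43 and 9 of the 19547 genes tested. They were drawn up with earlier results of these data known, so nothing is read from their share. In bulk tissue a lower value can mean fewer cells of a type or less RNA per cell, and these cannot be told apart here.

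Among rod genes 23 identifiers were matched, 16 were tested and 12 were called higher, beside 0.414% of all genes tested. The sorting gene gnat1 is among the 12 and enters the list medians. The median log2 difference over the 16 was 3.64. With no filter on low counts the median of the list was 2.41. Reads of near-identical copies could be split between identifiers that share a symbol, and the sources used here do not give how such reads were counted.

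The rod cascade showed the same order of sets as gnat1. PDE6G, the inhibitory subunit of the rod phosphodiesterase, stood at 46.5, 39.1, 24.6, 22.9 and 25.1 CPM against 4.51, 4.63 and 4.99 in the low libraries and 2.63, 0.472, 2.502 and 1.96 in wild type, a log2 difference of 2.57 ± 0.27 (fitted value ± SE, as in all such pairs below). All 5 high libraries lay above the other 7. Within them actb1 sponge 1 and 2 were highest, whereas gnat1 was highest in actb1 sponge 3. PDE6B ENSDARG00000000380, a catalytic subunit, stood at 25.3 ± 7.78 CPM (SD, n = 5) against 1.55 ± 0.7099 (n = 3), and PDE6B ENSDARG00000011671 at 8.54 ± 1.901 against 2.34 ± 0.784. saga and sagb, the rod arrestins that stop signalling by the light-activated opsin, stood at 33.5, 24.03, 61.001, 18.9 and 27.01 CPM and 9.57, 6.46, 32.6, 7.39 and 14.7 CPM in the high libraries. Their low libraries held 0, 0.533 and 0.221 CPM and 0.376, 0.533 and 0.253 CPM, so the sets did not overlap for either gene. CNGA1 ENSDARG00000029898, the α subunit of the rod cation channel, was at 5.19 ± 1.68 against 0.194 ± 0.17003 CPM. The opsin kinase gene grk1b was counted in the rod list, though its use by rods or cones was not tested. It was at 3.45 ± 1.28 against 0.0538 ± 0.0487 CPM. The gene gucy2f, a guanylate cyclase that restores cyclic GMP, was at 4.45 ± 1.24 against 0.495 ± 0.0772 CPM. NR2E3, a nuclear receptor that sets rod identity, was at 3.42 ± 0.647 against 0.575 ± 0.334 CPM, and the exchanger gene SLC24A1 at 8.79 ± 4.38 against 1.99 ± 0.912 CPM.

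Members of the rod list that were not called differed in kind. A further CNGA1 identifier, ENSDARG00000012125, was higher in all 5 high libraries at 0.577 to 1.82 CPM against 0 to 0.1897 CPM. rom1a, a disc rim protein, overlapped at 0.416 to 1.04 against 0.233 to 0.537 CPM, and cngb1b at 4.65 to 8.23 against 4.85 to 8.79 CPM. The 7 untested identifiers included SAMD7, GRK1, ROM1, cngb1a, GUCA1B and nrl. nrl, the leucine zipper factor of rods in mammals, reached 0 to 0.4395 CPM in the high set and 0 to 0.0667 in the low. GUCA1B, a guanylate cyclase activator, reached 0 to 0.208 and 0.0751 to 0.158 CPM.

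**Figure D2:**
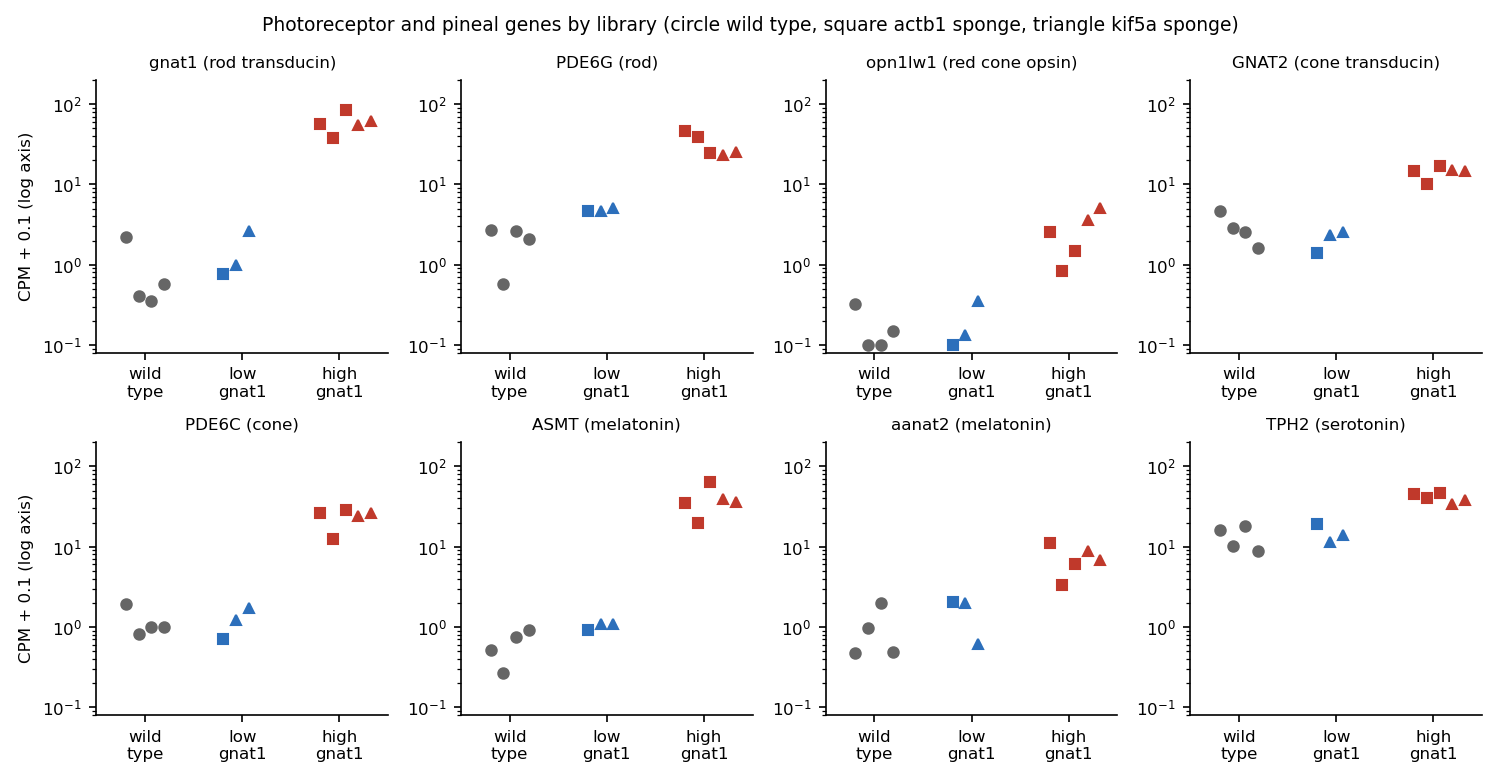
Values of 8 genes in the 12 libraries, as CPM plus 0.1 on a log axis, with wild type in grey circles, low-gnat1 libraries in blue, high-gnat1 libraries in red, squares for the actb1 line and triangles for the kif5a line. Every panel has all 5 red points above the other 7.

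The cone list also held called genes. Among cone genes 30 identifiers were matched, 22 were tested and 12 were called higher, beside 0.414% of all genes tested. The median log2 difference was 3.51, and 2.86 with no filter on low counts. GNAT2, the cone transducin α subunit, stood at 14.4, 10.1, 16.7, 15.2 and 14.6 CPM in the high libraries, 1.32, 2.23 and 2.47 in the low and 4.62, 2.77, 2.43 and 1.53 in wild type, a log2 difference of 2.90 ± 0.23. PDE6C, the catalytic subunit of the cone phosphodiesterase, stood at 25.9, 12.2, 28.3, 23.8 and 26.5 CPM against 0.601, 1.13 and 1.61 and 1.84, 0.708, 0.894 and 0.9098, a log2 difference of 4.49 ± 0.37. For both genes the 5 high libraries lay above the other 7, and actb1 sponge 2 was the lowest of the 5. The inhibitory subunit genes pde6ha and PDE6H were at 58.8 ± 21.4 and 4.22 ± 1.56 CPM in the high set, against 2.77 ± 1.68 and 0.168 ± 0.0609 in the low.

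Genes that stop the cone response were among those with the largest differences. ARR3 ENSDARG00000056511, a cone arrestin, stood at 60.9, 31.8, 73.9, 42.6 and 48.3 CPM against 0.977, 0.667 and 0.822 in the low libraries and 2.06, 0.574, 0.465 and 0.383 in wild type (5.84 ± 0.33). The other arrestin identifier, ARR3 ENSDARG00000098475, stayed between 0.312 to 0.679 CPM in the high set and 0.451 to 0.5999 CPM in the low. The cone opsin kinase identifiers GRK7 ENSDARG00000020602 and GRK7 ENSDARG00000055534 were at 18.6 ± 7.28 and 12.4 ± 5.698 CPM against 0.2298 ± 0.13996 and 0.637 ± 0.244. GNGT2 ENSDARG00000010680, a cone transducin γ subunit, was at 9.97 ± 3.64 against 0.1296 ± 0.135 CPM, whereas GNGT2 ENSDARG00000103543 overlapped (0.173 to 2.56 against 0 to 0.948 CPM). The channel genes CNGA3 ENSDARG00000070726 and cngb3.2 and the cyclase gene gucy2d were also called, at 8.85 ± 1.76, 3.09 ± 1.41 and 8.43 ± 1.87 CPM in the high set.

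Cone opsins were low in all libraries, and 1 of them, the red-sensitive opn1lw1, was called higher in the high set. opn1lw1 stood at 2.47, 0.7304, 1.37, 3.47 and 5.03 CPM in the high libraries, 0, 0.0333 and 0.253 in the low and 0.225, 0, 0 and 0.0479 in wild type (5.13 ± 0.76). opn1lw2 stood at 3.35, 0.923, 1.31, 7.28 and 6.87 CPM, 0.0376, 0 and 1.11 CPM and 0.488, 0.0337, 0.143 and 0.0479 CPM in the same order. For opn1lw2 actb1 sponge 2 lay below the low library kif5a sponge 4, and the gene was not called (3.94 ± 0.97). Both red opsins were highest in the kif5a libraries of the high set. The blue opsin opn1sw2 overlapped at 0.1598 to 1.25 CPM in the high set and 0.188 to 0.822 CPM in the low. The green opsins opn1mw1, opn1mw2, opn1mw3 and opn1mw4 reached at most 0.54 CPM in any of the 12 libraries. The thyroid hormone receptor gene THRB, which is used across the brain as well as in red cones, was level at 91.9 ± 11.1 CPM in the high set and 91.2 ± 13.003 CPM in the low.

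Among genes shared by rods and cones 56 identifiers were matched, 43 were tested and 15 were called higher, beside 0.414% of all genes tested. The median log2 difference of the 43 was 0.44. rbp4l, of the retinol-binding protein family, had the largest fitted difference of all called genes: 38.8, 29.3, 87.3, 37.1 and 53.5 CPM in the high libraries, 0.1503, 0.39996 and 0.253 in the low and 0.525, 0.337, 0.179 and 0.287 in wild type (7.42 ± 0.53). Recoverin genes, which encode calcium sensors of photoreceptors, were called for 3 identifiers. RCVRN ENSDARG00000009637 was at 21.4 to 44.1 CPM against 0.0948 to 0.867 CPM, RCVRN ENSDARG00000019902 at 6.07 to 12.6 against 0.113 to 0.253, and rcvrna at 4.998 to 10.9 against 0 to 0.267. rbp3, the retinoid-binding protein of the space around outer segments, stood at 60.2, 38.8, 68.98, 40.5 and 43.6 CPM against 0.939, 1.87 and 1.68 CPM in the low libraries and 3.72, 1.21, 4.47 and 1.44 CPM in wild type. The homeobox factors crx and CRX, which turn on photoreceptor genes and carry the same name in different case, were at 3.81, 2.499, 3.902, 4.33 and 3.84 CPM and 2.47, 1.499, 3.16, 3.95 and 2.997 CPM in the high set. Their low libraries held 0.113, 0.19998 and 0.379 CPM and 0.0376, 0.433 and 0.284 CPM. Phosducin, a regulator of transducin (PDC ENSDARG00000017634), was at 7.96 ± 4.32 against 0.147 ± 0.0449 CPM. AIPL1, a chaperone for the phosphodiesterase, was at 5.24 ± 2.25 against 0.2298 ± 0.0914 CPM, and the lipid transporter ABCA4 ENSDARG00000062661 at 5.06 ± 1.77 against 0.613 ± 0.0399 CPM.

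Some members of this list that were not called did not differ in this way. PDC ENSDARG00000011886 was at 0.4395 to 0.986 CPM in the high set and 0.567 to 1.201 in the low, UNC119 at 7.54 to 14.5 and 8.04 to 14.8, NEUROD1 at 129 to 188 and 161 to 176, and RGS9 ENSDARG00000045156, a regulator of G protein signalling, at 23.8 to 33.8 and 28.96 to 35.5. Each of these pairs of ranges overlapped. Other members that were not called had positive log2 differences, such as NXNL1 (2.73), tulp1a (2.70) and IMPG1 (1.21). Of the 43 tested members 31 were above 0 and 12 below. The outer segment rim gene PRPH2 was near 0 in all libraries under both of its identifiers, with at most 0.41 CPM. The related gene prph2la, which is outside the lists, was called at 1.35 to 2.96 CPM against 0 to 0.126 CPM.

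ASMT and LHX4 were the called members of the pineal list. Of its 11 matched identifiers 9 were tested, 2 were called higher, 5 were higher in all 5 high libraries, and the median log2 difference was 1.18. Over all genes tested, 0.414% were called higher and 1.8% were higher in all 5 high libraries. LHX4 was called in 2 of the 8 fits that each leave out a library, those without actb1 sponge 2 and without kif5a sponge 1. ASMT stood at 35.3, 19.4, 62.97, 39.7 and 36.4 CPM in the high libraries, 0.827, 0.9999 and 0.9799 in the low and 0.413, 0.169, 0.643 and 0.814 in wild type, a log2 difference of 5.33 ± 0.41. aanat2, the N-acetyltransferase of the fish pineal organ, stood at 10.9, 3.19, 6.05, 8.74 and 6.75 CPM, 1.95, 1.8998 and 0.506 CPM and 0.375, 0.877, 1.89 and 0.383 CPM in the same order. Its sets did not overlap, but it was not called (2.25 ± 0.54). LHX4, a LIM homeobox factor, was at 10.02 ± 2.18 against 2.31 ± 0.838 CPM (1.97 ± 0.27). The homeobox gene bsx was at 5.497 to 9.44 CPM in the high set, 2.33 to 3.63 in the low and 2.92 to 5.04 in wild type, and the non-visual opsin gene parapinopsinb at 7.21 to 9.99, 3.3996 to 4.697 and 3.51 to 5.37 CPM. Neither was called. parietopsin overlapped at 0.119 to 1.48 against 0.0316 to 0.225 CPM. The paralogues asmt2 (16.7 ± 2.43 against 15.5 ± 1.13 CPM), ASMTL (15.2 ± 2.01 against 16.8 ± 0.345) and AANAT (1.78 ± 0.5703 against 2.02 ± 0.369) overlapped between sets.

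Serotonin is the precursor of melatonin, and its synthesis genes were looked up after their values had been seen. TPH2, a tryptophan hydroxylase, was among the 81 called genes with the smallest difference of all (1.34 ± 0.15). It stood at 45.5, 39.7, 46.3, 33.9 and 38.6 CPM in the high libraries, 19.01, 11.3 and 13.9 in the low and 16.03, 10.02, 17.8 and 8.86 in wild type. The hydroxylase TPH1 ENSDARG00000029432 stood at 8.51, 8.92, 23.6, 15.6 and 18.6 CPM, 4.02, 4.899 and 3.45 CPM and 4.32, 3.54, 5.54 and 3.88 CPM in the same order, again without overlap. TPH1 ENSDARG00000036082 was at most 0.79 CPM in any library, and the decarboxylase DDC overlapped (9.63 to 15.9 against 8.76 to 11.2 CPM).

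Of 20 tested genes of the list for retinal pigment epithelium and pigment cells 1 was called and 6 were higher in all 5 high libraries, with a median log2 difference of 0.53. Over all genes tested these shares were 0.414% and 1.8%. The called gene, the retinol dehydrogenase rdh5 of the retinoid cycle, which regenerates the chromophore of opsins, stood at 16.96, 12.5, 23.1, 11.4 and 16.4 CPM in the high libraries, 0.113, 0.367 and 0.0632 in the low and 0.1501, 0.101, 0.0357 and 0.144 in wild type (6.33 ± 0.48). RPE65 ENSDARG00000007480, STRA6 and LRAT were not called. RPE65 ENSDARG00000007480, of the retinoid isomerase family, stood at 28.5, 21.1, 45.8, 33.05 and 25.5 CPM, 0.413, 10.1 and 2.62 CPM and 7.47, 7.52, 3.93 and 3.54 CPM. STRA6, a retinol uptake receptor, was at 22.5 to 28.8 CPM in the high set, 3.08 to 12.3 in the low and 2.86 to 11.5 in wild type. LRAT, which esterifies retinol, was at 1.15, 1.04, 1.16, 4.85 and 5.39 CPM in the high libraries and 0.411 to 0.5999 in the low, so its larger values came from the kif5a libraries. The retinal binding protein genes rlbp1b and rlbp1a were at 3.69 to 7.15 and 4.46 to 12.2 CPM in the high set against 0.338 to 1.64 and 0.451 to 1.83 CPM in the low. Both are in another list, and rlbp1b was called whereas rlbp1a was not. The other RPE65 identifiers, ENSDARG00000094752 and ENSDARG00000054420, overlapped, with 1.64 to 7.84 and 2.07 to 13.6 CPM in the high set.

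Pigment genes themselves overlapped between the sets. Tyrosinase (TYR) was at 0 to 0.417 CPM in the high set and 0.0632 to 0.167 in the low, DCT at 0 to 0.3996 and 0.0376 to 0.6999, and TYRP1 ENSDARG00000029204 at 2.38 to 3.96 and 2.4997 to 4.85. pmela and pmelb, of a pigment granule protein, were at 0.639 to 3.51 and 1.65 to 12.2 CPM against 0.601 to 2.2998 and 0.188 to 4.899 CPM. The retinal interneuron factor VSX1 was at 0 to 0.0986 CPM in the high set and 0 to 0.221 CPM in the low. In the list for retinal bipolar, amacrine and ganglion cells 1 of 20 tested genes was called, rlbp1b (0.414% over all genes tested). rlbp1b and rlbp1a were also its 2 members higher in all 5 high libraries (1.8% over all genes tested). The plan had set rlbp1b among pigment epithelium markers, so its call is not read as one about those neurons. The median log2 difference of that list was 0.18. Of 12 tested lens genes 0 were called, and their summed level was 17.5 to 31.1 CPM in the high set, 18.0 to 19.6 in the low and 16.4 to 20.8 in wild type. The part of retinal or pineal tissue in the split was not tested.

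**Figure D3:**
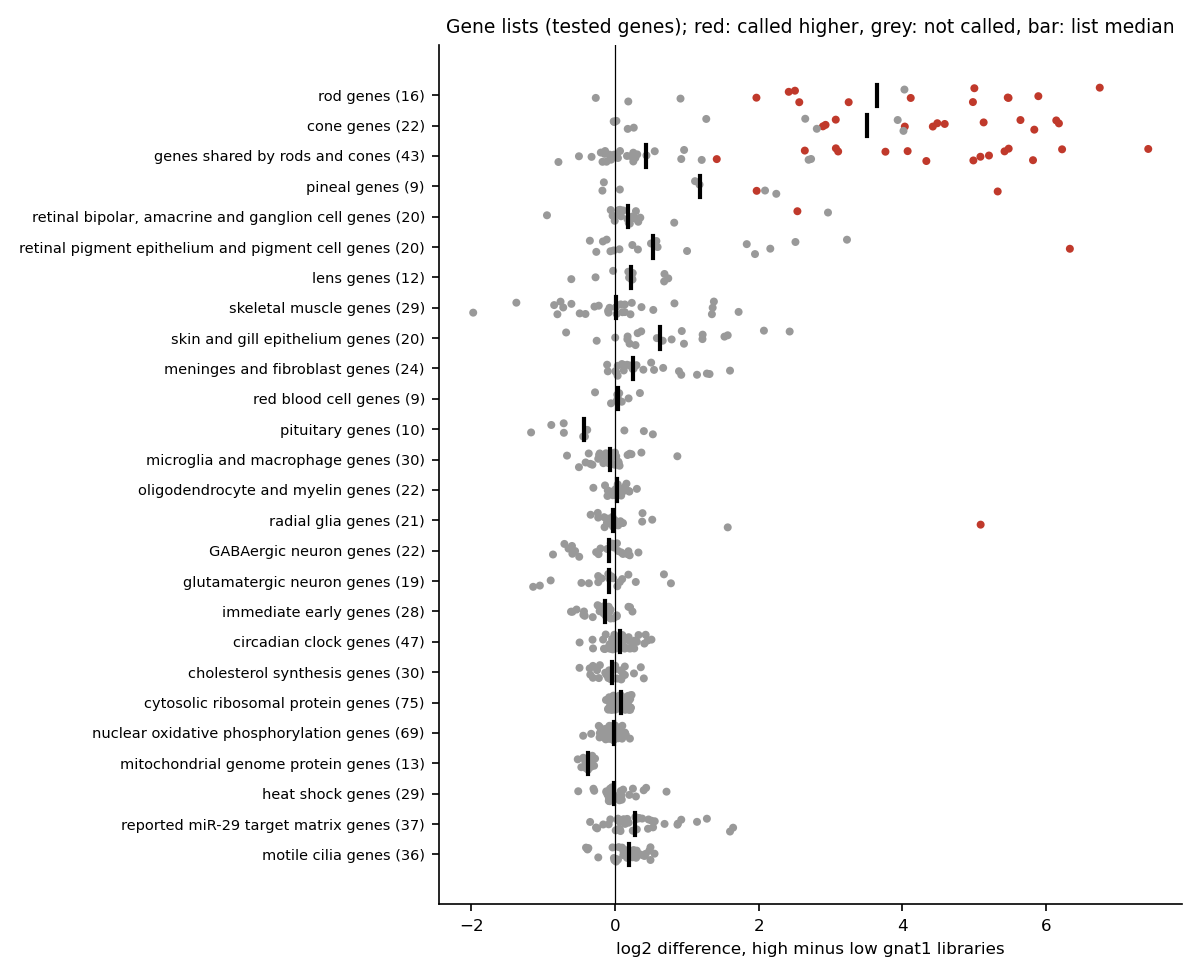
Fitted log2 difference of high minus low gnat1 libraries for each tested member of 26 gene lists (number tested in brackets), with called genes in red, other genes in grey and the list median as a black bar. Medians reach 3.64 for rod genes and 3.51 for cone genes and lie between -0.43 and 1.18 for the other lists.

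Outside the 4 photoreceptor and pineal lists 40 genes were called. Of the 81, 13 had a clone-style name or no symbol. The named genes with the largest differences included several of the same cascade under other names. unc119c, of a family that carries lipid-modified transducin, stood at 13.6, 9.42, 22.3, 12.3 and 14.2 CPM in the high libraries, 0.0751, 0.167 and 0.0632 in the low and 0.188, 0.135, 0.107 and 0.0958 in wild type (7.01 ± 0.44). GNG11, annotated as a G protein γ subunit, was at 57.9, 47.1, 103, 47.9 and 56.5 CPM against 0.1503, 1.03 and 1.14 CPM in the low libraries. GNB3, a G protein β subunit, was at 2.61 ± 0.709 against 0.202 ± 0.0766 CPM, and guca1aa, a guanylate cyclase activator, at 6.59 ± 1.57 against 0.424 ± 0.284 CPM. irbpl, related by name to rbp3, was at 6.77 ± 1.04 against 0.409 ± 0.243 CPM. pcare2 and rpgrip1, of families named for photoreceptor cilia, were at 4.24 ± 1.84 and 1.51 ± 0.736 CPM against 0.103 ± 0.03603 and 0.0216 ± 0.0188. GUK1 ENSDARG00000005776, a guanylate kinase, was at 8.03 ± 3.79 against 0.133 ± 0.119 CPM.

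Some called genes are not known for phototransduction. GLMN (glomulin) was at 18.8, 13.1, 22.8, 11.7 and 24.1 CPM against 0.0751, 0.333 and 0.0316 CPM in the low libraries. SLC25A3 ENSDARG00000027424, a mitochondrial phosphate carrier, was at 4.78 ± 1.35 against 0.556 ± 0.321 CPM, and the synaptic vesicle genes sv2ba and syt5a at 3.51 ± 0.559 and 9.51 ± 2.32 against 0.753 ± 0.307 and 2.03 ± 0.259 CPM. bmp7a, a growth factor, was at 1.55 ± 0.373 against 0.278 ± 0.113 CPM. The glutamate transporter SLC1A2 ENSDARG00000052138 was at 0.8296 ± 0.303 against 0.0211 ± 0.0365 CPM and was the called member of the radial glia list. The identifier ENSDARG00000059257, which the name table leaves without a symbol, was at 60.6, 62.9, 67.9, 61.6 and 46.2 CPM against 1.69, 6.199 and 0.7903 CPM. Genes of this paragraph other than GLMN and SLC25A3 were chosen after their values were seen, as were GNB3, rpgrip1 and prph2la above.

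Wild type stood with the low set. For all 81 called genes the 4 wild-type libraries lay below the 5 high libraries, a comparison in which the choice of libraries by gnat1 plays the same part. Summed over the 81, the level was 1118, 827, 1550, 1011 and 1102 CPM in the high libraries, 72.5, 86.6 and 84.8 CPM in the low and 107, 76.5, 86.8 and 80.2 CPM in wild type. This is 0.0827% to 0.155% of the counts of a high library. The mean of the low libraries was under 1 CPM for 60 of the 81, so the fitted difference of those genes depends on how the fit treats very small counts.

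**Figure D4:**
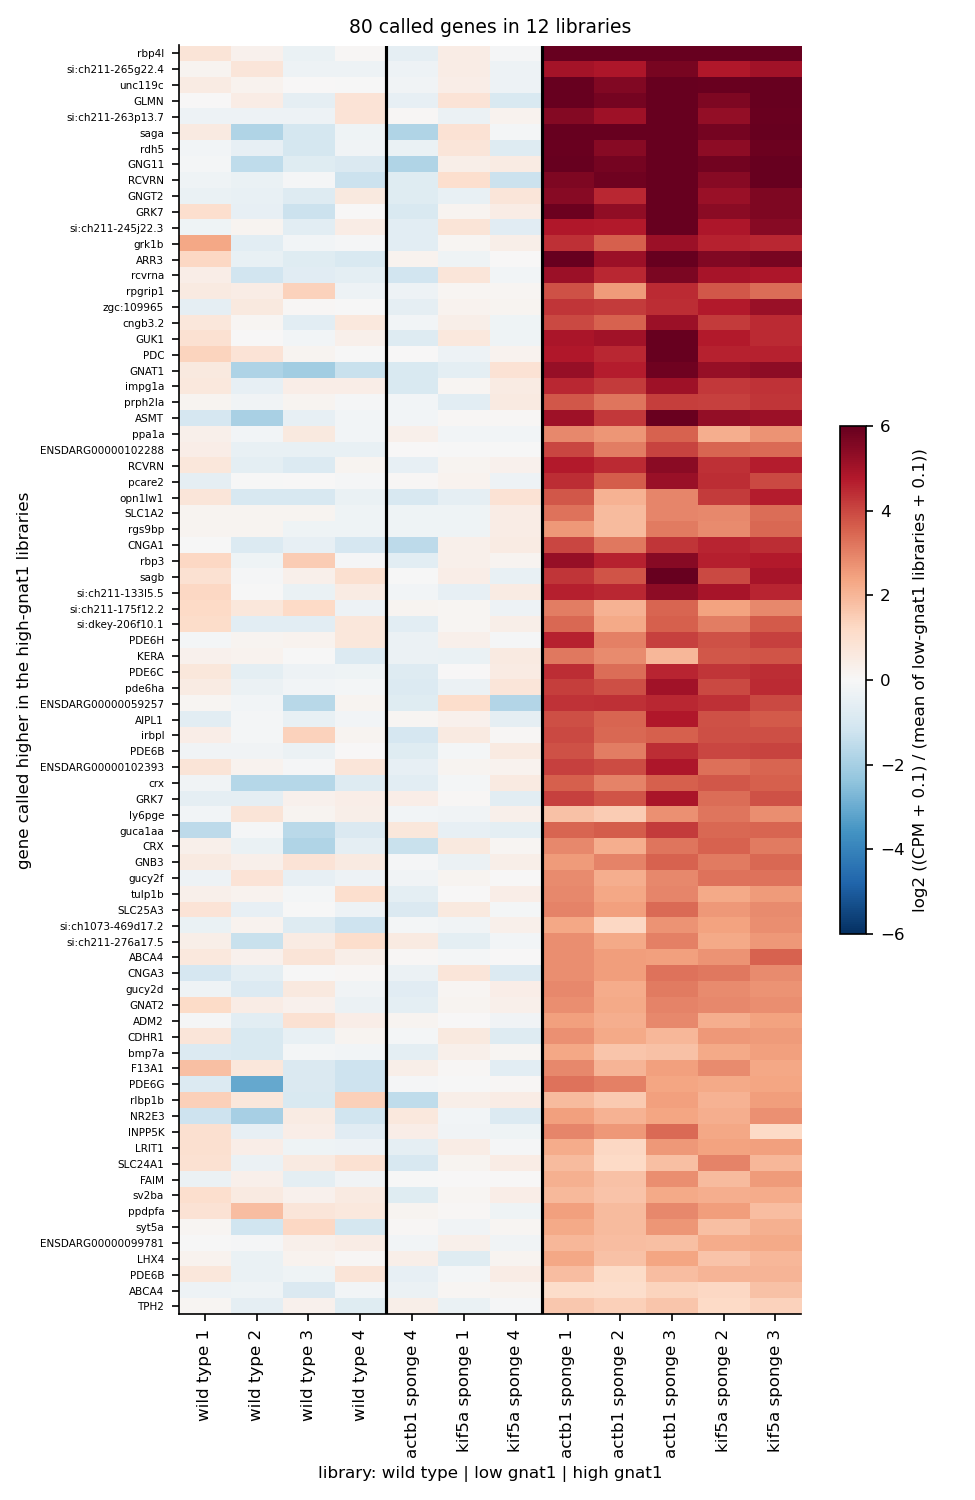
Log2 ratio of CPM plus 0.1 to the mean of the low-gnat1 libraries plus 0.1, for 80 of the 81 called genes (rows, by fitted difference) in 12 libraries (columns). The 5 columns on the right are red in every row, and the columns of wild type and of the low libraries stay near 0, with medians over the 81 genes from -0.34 to 0.30.

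Within the high set the called genes varied. actb1 sponge 3, the library with the low mitochondrial share, was highest for 53 of the 81 and actb1 sponge 2 was lowest for 55. Leaving out actb1 sponge 3 gave 76 genes called higher, 72 of them among the 81. Dividing each gene by gnat1 in the same library gives its level relative to gnat1, which itself ran from 38.3 to 85.6 CPM. A gene that was level across the 5 libraries would therefore vary in this ratio. Over the 81 genes, gnat1 among them, the ratio ranged over a median of 1.704-fold across the 5 libraries. It was steadiest for unc119c (1.17-fold), gucy2d (1.28-fold) and PDE6B ENSDARG00000000380 (1.33-fold). GNAT2, PDE6C and ASMT ranged over 1.42-, 1.45- and 1.45-fold. PDE6G ranged over 3.54-fold and opn1lw1 over 5.16-fold. These ratios share libraries and gnat1, and are given as a description.

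**Figure D5:**
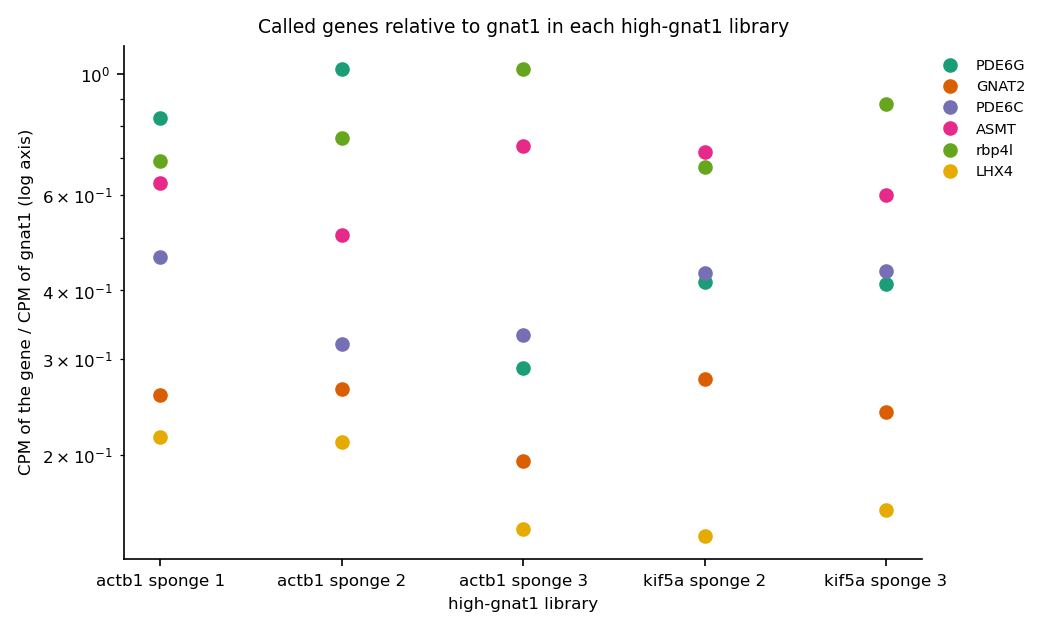
CPM of 6 called genes divided by the CPM of gnat1 in each of the 5 high-gnat1 libraries, on a log axis. GNAT2, ASMT and rbp4l keep within 1.52-fold of themselves, whereas PDE6G stands at 0.828 and 1.02 times gnat1 in actb1 sponge 1 and 2 and at 0.288 to 0.414 times in the other 3.

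Levels can be compared between genes only per length, and RPKM (CPM divided by gene length in kilobases) was recomputed for this. In the high libraries pde6ha stood at 72.1 ± 26.2 RPKM (mean ± SD, n = 5) and GNG11 at 67.9 ± 25.2. All genes were measured in the same 5 libraries, so overlap of these SDs does not tell whether genes differ. Next by mean came ENSDARG00000059257 at 40.4 ± 5.47, rbp4l at 33.7 ± 15.8 and ASMT at 31.5 ± 12.7 RPKM. GNAT1 was at 30.1 ± 8.66 and ARR3 ENSDARG00000056511 at 29.9 ± 9.48 RPKM. rbp3 was at 21.4 ± 5.701, PDE6G at 18.5 ± 6.17 and TPH2 at 18.4 ± 2.32 RPKM. GNAT2, at 5.49 ± 0.947 RPKM, was lower than GNAT1, and opn1lw1 was at 1.54 ± 1.01 RPKM.

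Most other gene lists held 0 called genes, beside 0.414% of all genes tested. The median log2 difference was 0.01 for skeletal muscle genes, 0.03 for oligodendrocyte and myelin genes, 0.07 for circadian clock genes and 0.04 for red blood cell genes, with 0 genes called in any of them. It was -0.37 for the mitochondrial genome, whose genes summed to 22405 to 120348 CPM in the high set, the lowest being actb1 sponge 3, and to 93742 to 139673 CPM in the low. The skin and gill epithelium list had a median of 0.62 with 0 of 20 genes called, and its sum was 128 to 1439 CPM in the high set against 135 to 186 in the low. The list of reported miR-29 targets, mostly matrix genes, had a median of 0.28, with 31 above 0, 6 below and 0 called. It also holds genes of DNA methylation, DNA demethylation and iron regulation. The list sum was 824 to 1361 CPM in the high set and 644 to 924 in the low. Meninges and fibroblast genes (0.25, 22 above and 2 below) and motile cilia genes (0.20, 29 above and 7 below) also had 0 called. Over all genes tested 10409 were above 0 and 9138 below.

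No gene was called lower, but among genes whose sets did not overlap the lower side included forebrain interneuron factors. Of 22 tested genes of the GABAergic neuron list 7 were below in all 5 high libraries (background 0.629% of all genes), and 0 were called. The list median was -0.08, with 14 members below 0 and 8 above. The glutamatergic neuron list had the same median, with 12 of 19 below 0, 7 above and 0 below in all 5. Its forebrain factors TBR1 and EOMES differed by -1.05 and -1.14, and a further EOMES identifier by 0.78. DLX1 stood at 10.5, 13.7, 13.4, 13.7 and 10.7 CPM in the high libraries, 15.7, 18.96 and 19.3 in the low and 17.3, 14.8, 22.2 and 15.99 in wild type (-0.55 ± 0.15). DLX5 stood at 13.8, 14.4, 7.09, 15.05 and 11.3 CPM, 17.5, 18.2 and 20.3 CPM and 20.004, 17.8, 19.8 and 17.2 CPM in the same order (-0.60 ± 0.26). The DLX genes are homeobox factors of forebrain GABAergic neurons. DLX2 ENSDARG00000079964, DLX2 ENSDARG00000017174 and DLX6 differed by -0.65 ± 0.20, -0.50 ± 0.23 and -0.59 ± 0.20. The LIM homeobox factors LHX6 ENSDARG00000006896 and LHX8 differed by -0.70 ± 0.18 and -0.86 ± 0.27, and SP9, a zinc finger factor of the same neurons, by -0.70 ± 0.20. For LHX8 and SP9 wild-type libraries lay in both ranges. The transmitter synthesis genes did not separate: GAD1 ENSDARG00000027419 was at 559 to 959 CPM in the high set and 641 to 848 in the low, and GAD2 at 340.2 to 731 and 609.6 to 905.

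Other genes below in all 5 included p2rx7 (1.54 to 5.83 against 6.91 to 11.9 CPM), an ATP-gated channel, and DUSP2 (3.88 to 7.304 against 8.099 to 10.7 CPM), a phosphatase. They also included ghrh, the growth hormone releasing hormone (1.22 to 2.19 against 2.88 to 2.93 CPM), prlhr2a (3.84 to 6.34 against 6.73 to 7.84 CPM) and CD151 ENSDARG00000038288 (1.49 to 2.597 against 2.63 to 3.08 CPM). The largest of these differences was that of p2rx7 (-1.19 ± 0.36). Wild type ranged over 0.786 to 17.2 CPM for p2rx7 and 4.68 to 17.9 CPM for DUSP2, wider than either set. Among genes above in all 5, fndc7rs4 was highest in kif5a sponge 2 and 3, at 0.789, 0.423, 0.506, 9.64 and 8.03 CPM in the high libraries and 0.263 to 0.333 CPM in the low.

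The labels, unlike the split, allow a test, and the lines were compared with the split held as a term in the same fit of 8 libraries. At an adjusted p under 0.05 in edgeR (Benjamini-Hochberg), the kif5a line exceeded the actb1 line in 77 genes and fell short of it in 77 (0.788% of 19547). Without the class term 91 were higher and 105 lower (1%), and 141 genes were called in both fits. The median standard error was 0.20 with the term and 0.19 without it. The 81 genes were picked through the split that enters this fit, so no test of them between the lines is given.

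Named here and in the next paragraph are the 6 genes per direction with the smallest p between the lines, clone-style names left out. armc9, a protein of ciliary basal bodies, was at 8.58, 8.11, 9.44 and 8.27 CPM in actb1 sponge 1 to 4, 30.1, 34.95, 36.9 and 35.2 CPM in kif5a sponge 1 to 4 and 10.5, 9.41, 9.87 and 9.002 CPM in wild type, a log2 difference of 1.98 ± 0.12 (edgeR adjusted p = 0.000495). NR1D1, a repressor of the circadian clock, was at 46.5, 48.4, 37.1 and 63.9 CPM in the actb1 line, 11.2, 12.3, 13.7 and 15.3 CPM in the kif5a line and 84.8, 55.2, 55.3 and 57.9 CPM in wild type (-1.99 ± 0.19, edgeR adjusted p = 0.00298). Each gene had no overlap between the lines, with high and low gnat1 libraries on both sides. ciarta, cry-dash and cry5, also of the clock and its light-responsive relatives, were lower in the kif5a line by log2 values of -2.03 ± 0.16, -1.28 ± 0.12 and -1.66 ± 0.18. tuft1a (-1.49 ± 0.13) and casp23 (-6.24 ± 0.65) were lower as well. myo1eb (3.25 ± 0.31), chrna10a (3.62 ± 0.37), the finTRIM gene ftr76 (2.48 ± 0.31) and RNF150 ENSDARG00000009524 (1.32 ± 0.17) were higher. ftr76 belongs to a multigene family whose reads can be split between copies.

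The matrix proteoglycan gene NCAN was called between the lines only with the class term. It stood at 20.7, 22.1, 20.6 and 10.3 CPM in the actb1 line and 30.6, 42.1, 39.6 and 23.8 CPM in the kif5a line, a log2 difference of 1.06 ± 0.13 with edgeR adjusted p = 0.0108 with the term and 0.16 without it. In each line the low gnat1 libraries had the lowest values.

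Entering the split changed how many genes were called against wild type. Wild type counts as low by the same threshold, and each line has its own term in these 12-library fits. The effect of the split is therefore estimated between high and low libraries within the sponge lines. With the class term, a line is compared with wild type at the level fitted for its low libraries. The fits share the wild-type libraries. For the actb1 line 10 genes were higher and 13 lower with the class term (0.117% of 19645), against 55 higher and 90 lower without it (0.738%), and 22 were called in both. For the kif5a line 5 were higher and 35 lower with the term (0.204%), against 22 and 83 without it (0.534%), with 39 in both (edgeR, adjusted p under 0.05). The median standard error rose from 0.18 to 0.24 in the actb1 comparison and from 0.18 to 0.21 in the kif5a comparison.

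Beyond that count, no test of the 81 split genes against wild type is given, since they were picked through the class term. Its fitted effect enters each line's comparison with wild type. Among genes named above, NCAN was lower than wild type in the actb1 line with the term (log2 difference -1.81, edgeR adjusted p = 0.000991). This value depends on the fitted effect of the split, which NCAN followed in each line, and actb1 sponge 4 is the only low library of the actb1 line. armc9 was higher (1.74, edgeR adjusted p = 5.64e-05) and ciarta lower (-2.45, edgeR adjusted p = 5.64e-05) in the kif5a line, as were NR1D1 (-2.15, edgeR adjusted p = 0.00229) and cry5 (-1.76, edgeR adjusted p = 0.00229) on the lower side.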

How the data were processed

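RNA of 12 brain libraries was sequenced. The kit was TruSeq RNA version 2, per the labels' protocols, and it keeps no strand information. The tools listed are featureCounts 1.4.6-p4, the aligner STAR 2.4.1d and, for base call conversion, bcl2fastq 1.8.4, and the build is GRCz10, per the submitters' processing notes. The sources used here do not give the annotation release or the treatment of reads with several matches. The authors deposited whole-number counts per gene, and all tests used these counts. The authors also deposited RPKM values; over 6540 genes the ratio of count to RPKM fitted library totals recycled down the table (median coefficient of variation within a gene 1.48e-05) and not each library's own total (0.179). The deposited RPKM therefore served only to recover gene lengths, from which RPKM was recomputed.

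Groups came from the strain label. Nothing in the labels ties each library to its own fish, so the spread behind a p-value may be technical. No library was treated as a duplicate, since every pair within a group gave a chi-square of 9.64 to 265 per degree of freedom, more than counting noise allows. Symbols from the supplied name table covered 81.8% of 32105 identifiers, and 1632 symbols stand for more than 1 identifier, so those genes are printed with it. No sequences or coordinates were used here.

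CPM are counts over the library total. The high and low sets were split at 10 CPM of gnat1. Fits used edgeR 4.0.16 in R 4.3.3 with TMM factors (0.926 to 1.06), genes above 0.5 CPM in at least 3 of 8 or 4 of 12 libraries, and Benjamini-Hochberg adjustment over all genes tested. The code was tested on simulated data. Alternatives were RLE scaling, no filter, a 2 CPM filter, DESeq2 1.42.0, limma-voom 3.58.1, no line or class term and all 12 libraries. Each library was also left out in turn, and gnat1 thresholds of 5 and 20 CPM were tried, which gave the same sets.

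The libraries, gene lists and alternatives were chosen with earlier results of these data known. Genes named were members of the 4 photoreceptor and pineal lists, up to 12 further genes per direction of largest difference without overlap at 2 CPM or more, up to 4 per other list, and up to 6 per direction between the lines. A planned ranking of genes by correlation with gnat1 is not given, because the 8 libraries form separate clusters. Further members of the pigment, interneuron and GABAergic lists were named after their values were seen. Some genes of the lists are counted but not reported here by name.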

Additional observations from a re-analysis of the deposited data

Results flagged for a closer look

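Single libraries that stood far from the rest of their set were sought with Dixon's ratio, in the 5 high-gnat1 libraries and in the 4 wild-type libraries, over 49 named genes, the library total, the mitochondrial share and the sum of the 81 called genes. The rule would flag about 1 in 20 independent groups with normal spread, and 12 of 104 groups were flagged. The groups share libraries, and their genes were mostly chosen through the split, so nothing is read from that count. In the high set actb1 sponge 3 was apart in its mitochondrial share, at 2.24% against 10.5% to 12.0% in the other 4. The same library was high for GNG11 (103 CPM against 47.1 to 57.9), GUK1 ENSDARG00000005776 (14.6 CPM against 5.07 to 7.50) and guca1aa (9.35 CPM against 5.65 to 6.38). actb1 sponge 2 was low for PDE6C (12.2 CPM against 23.8 to 28.3) and for PDE6B ENSDARG00000011671 (5.31 CPM against 8.74 to 9.99). Among wild-type libraries, wild type 1 was high for gnat1 (2.14 CPM against 0.2502 to 0.479), grk1b (0.676 CPM against 0 to 0.0479) and ARR3 ENSDARG00000056511 (2.06 CPM against 0.383 to 0.574), and low for pcare2 (0.0375 CPM against 0.0958 to 0.107). Wild type 2 was high for gucy2f (0.945 CPM against 0.322 to 0.383) and wild type 3 for NR2E3 (0.858 CPM against 0.0675 to 0.192). These wild-type values lie below every high-gnat1 library for the same gene. The pcare2 values of every wild-type library, and the grk1b values other than that of wild type 1, lie at or below the floor of 3 counts. Nothing is read from the flags of these genes.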

How the results depend on the processing

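No paired analysis was possible because the labels give no replicate numbers that groups share. RLE scaling, no filter, a 2 CPM filter, limma-voom, no line term and all 12 libraries gave 67 to 88 called higher and 0 lower. Thresholds of 5 or 20 CPM of gnat1 gave the same sets of libraries, so those fits only repeat the main one. DESeq2 called 139 higher and 10 lower. Leaving out each library gave 60 to 78 higher and 0 to 7 lower, the 7 without actb1 sponge 4. Of the 81, 54 were called without actb1 sponge 4, 57 without kif5a sponge 4, 58 without kif5a sponge 1 and 59 without kif5a sponge 3. The rod list median was 2.41 without a filter and 3.33 to 4.61 with a library left out, and the cone median 2.86 without a filter, 4.03 at 2 CPM and 3.201 to 4.44 with a library left out. Between the lines, DESeq2 called 369 higher and 400 lower, and leaving out a library gave 25 to 96 higher and 24 to 109 lower, fewest without kif5a sponge 3 and most without actb1 sponge 3. Against wild type, DESeq2 with the class term called 102 and 195 genes in the actb1 line and 54 and 173 in the kif5a line; without the term edgeR called 55 and 90, and 22 and 83. The higher count was 9 in the kif5a line without a filter, and 6 and 3 in the actb1 and kif5a lines at 2 CPM. With a library left out the actb1 counts were 1 to 28 higher (1 without actb1 sponge 1 or 2, 28 without wild type 3) and 5 to 41 lower (5 without kif5a sponge 1, 41 without wild type 3), and the kif5a counts 3 to 16 higher (16 without wild type 3) and 11 to 36 lower (11 without kif5a sponge 1). Of the single genes, of 8 fits that each leave out a library, LHX4 was called in 2 and SLC25A3 ENSDARG00000027424 in 5. aanat2, parapinopsinb, rlbp1a, RPE65 ENSDARG00000007480 and fndc7rs4 were not called in the main fit but were called by DESeq2. rlbp1a was also called with no filter and with all 12 libraries, and fndc7rs4 by limma-voom. Of the 8 fits that each leave out a library, rlbp1a was called in 2. In those fits parapinopsinb, RPE65 ENSDARG00000007480 and fndc7rs4 were each called in 1, and aanat2 in 0. NCAN and RNF150 ENSDARG00000009524 were called between the lines in 6 of 8 such fits, and ftr76 and casp23 in 7 of 8. Depth limits genes near the floor of 3 counts, such as nrl and the green opsins.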

Other observations

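Single libraries of the high set carried other gene groups that the split did not share. Skin and gill epithelium genes summed to 1439 CPM in kif5a sponge 2 and to at most 186 CPM in the low libraries. In that library pkp3a, a desmosomal plaque gene, stood at 13.2 CPM against 0.362, 0.538, 1.13 and 0.3596 in the other 4 high libraries and 0.337 to 0.5004 in wild type, and cldnb, an epithelial claudin, at 7.59 CPM against 0.263 to 0.533 in the low libraries. The collagen genes COL1A2, col1a1a and COL1A1, chosen after their values were seen, were highest in actb1 sponge 3 and kif5a sponge 2. COL1A2 stood at 31.5, 32.2, 118, 115 and 39.6 CPM in the high libraries, 28.7, 40.03 and 23.5 in the low and 21.7, 22.3, 29.2 and 19.01 in wild type. col1a1a stood at 18.8, 17.8, 60.1, 96.2 and 44.6 CPM, 18.04, 25.4 and 16.8 CPM and 18.7, 15.9, 20.6 and 17.6 CPM in the same order, and COL1A1 at 18.6, 16.03, 59.6, 110.4 and 16.3 CPM, 11.7, 24.997 and 10.9 CPM and 16.8, 9.45, 19.8 and 10.8 CPM. COL5A2 was highest in kif5a sponge 2, at 26.1, 13.9, 33.4, 49.5 and 32.8 CPM in the high libraries and 11.5, 29.3 and 15.6 in the low. FABP7 ENSDARG00000034650, a lipid-binding protein of radial glia, was at 35.6, 29.5, 142, 37.8 and 19.6 CPM in the high libraries and 5.07, 32.1 and 8.16 in the low.

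3 transcription factor genes chosen after their values were seen were lowest in kif5a sponge 2 and 3, which are both in the high set. TBR1 stood at 68.3, 72.5, 67.05, 30.4 and 9.99 CPM in the high libraries, 85.4, 51.2 and 62.7 in the low and 47.6, 54.8, 48.7 and 65.2 in wild type. EOMES ENSDARG00000006640 stood at 126, 124, 178, 38.2 and 20.3 CPM, 152, 81.3 and 116 CPM and 82.9, 106, 73.8 and 117 CPM, and BHLHE23 at 57.2, 58.4, 46.02, 34.9 and 15.2 CPM, 75.3, 58.2 and 58.3 CPM and 56.4, 64.2, 44.2 and 69.7 CPM. BHLHE23 is from the list for retinal bipolar, amacrine and ganglion cells. For these 3 genes the sets overlapped, and EOMES ENSDARG00000006640 was highest of all 12 libraries in actb1 sponge 3. The other tested EOMES identifier had a log2 difference of 0.78.

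The retinoid gene CYP27C1, which makes the alternative chromophore of fish and was looked up after its values were seen, stood at 20.5, 17.7, 20.9, 18.9 and 25.3 CPM in the high libraries, 9.32, 10.8 and 4.93 in the low and 12.6, 11.3, 11.4 and 9.48 in wild type. Immediate early genes had a median log2 difference of -0.14, with 23 of 28 below 0 and 0 called. Over all genes tested 9138 of 19547 were below 0, and 0.629% were below in all 5 high libraries, against 1 of these 28. NPAS4 ENSDARG00000087753 was below in all 5 high libraries, at 4.23 to 7.47 against 7.63 to 9.104 CPM.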
